A study of Homo sapiens with 6 samples.

Results

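Of the 5992 HMGB2 peaks on chromosomes 1 to 22 and X in untreated IMR90 cells, 2165 (36.1%) overlapped no SON peak of any of 3 lists, not even by 1 bp. These 2165 peaks, the SON-free HMGB2 peaks, are described here. The name refers to these lists and not to an absence of SON. They were selected on the overlap itself, so the count and the distances to SON below are descriptions. The other 3827 HMGB2 peaks were met by at least 1 SON list and serve as the comparison. IMR90 is a long-established line of human fibroblasts, grown from embryonic lung. Peaks came from ChIPmentation, in which a transposase adds sequencing adapters to chromatin that is held on an antibody. SON was mapped in untreated cells, in cells given ICM for 3 days and in cells given ICM for 6 days, and ICM is not spelled out in the labels. HMGB2 was mapped in untreated cells alone. Cells for SON were fixed with 1% formaldehyde for 10 min, while cells for HMGB2 were first held in 1.5 mM EGS, a protein crosslinker, for 20 min. Target and fixation therefore cannot be told apart in any contrast of HMGB2 with SON. The HMGB2 input and the DSG-named HMGB2 sample of the series were not analysed here. Each group had 1 list, so nothing below has a replicate check, and the intervals cover counting error only. They are 95% exact binomial (Clopper-Pearson) intervals for shares, and they treat neighbouring peaks as independent.

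HMGB2 is a chromatin protein with a pair of HMG boxes, domains that bind the minor groove of DNA with little regard to sequence and bend it. It is abundant in dividing cells and is known to fall as cells become senescent. SON is a large scaffold protein of nuclear speckles, the bodies that store splicing factors. Highly transcribed, gene-rich chromatin lies near speckles. An HMGB2 peak without SON is thus a place where the caller found HMGB2 and no list placed SON.

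The SON-free peaks included gene starts and stretches of gene bodies, and sequences of starts are shown first. MUS81, which encodes a structure-specific DNA endonuclease, held the strongest SON-free peak at a protein-coding start (chr11:65860274-65860643). NVL, an AAA ATPase of the nucleolus, held the one with the most fragments (chr1:224330063-224330566). FOS, a subunit of the AP-1 transcription factor, and GNAI3, a G protein subunit, complete the 4 starts with the highest −log10 p of a SON-free peak over them, which is why these are shown. Each line gives 200 bases of the plus or minus strand in the direction of transcription, from 170 bases before the start to 30 bases from it on, from RefSeq's promoter windows on GRCh38.p14. Capitals mark a GC box (GGGCGG on either strand), a TATA box (TATAAA), an ETS motif (CCGGAAG) or a run of the CTCF core motif (AGGGGGC).
MUS81 (chr11:65860263-65860462, plus strand): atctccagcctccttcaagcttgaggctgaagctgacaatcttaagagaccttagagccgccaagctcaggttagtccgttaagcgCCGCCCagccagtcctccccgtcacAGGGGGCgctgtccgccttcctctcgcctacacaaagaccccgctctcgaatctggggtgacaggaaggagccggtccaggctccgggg
NVL (chr1:224330143-224330342, minus strand): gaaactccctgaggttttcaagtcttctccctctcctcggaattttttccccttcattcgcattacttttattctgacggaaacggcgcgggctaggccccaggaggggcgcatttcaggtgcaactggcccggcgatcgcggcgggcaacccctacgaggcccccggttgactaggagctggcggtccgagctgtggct
FOS (chr14:75278658-75278857, plus strand): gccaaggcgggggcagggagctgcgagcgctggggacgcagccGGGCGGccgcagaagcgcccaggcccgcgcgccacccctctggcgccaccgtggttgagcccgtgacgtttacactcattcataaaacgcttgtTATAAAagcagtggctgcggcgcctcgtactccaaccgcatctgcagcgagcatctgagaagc
GNAI3 (chr1:109548445-109548644, plus strand): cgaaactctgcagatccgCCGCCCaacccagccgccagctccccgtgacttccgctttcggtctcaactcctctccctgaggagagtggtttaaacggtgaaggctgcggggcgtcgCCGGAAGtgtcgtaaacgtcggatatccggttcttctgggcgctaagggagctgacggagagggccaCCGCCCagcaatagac
MUS81 holds a GC box and the CTCF core run, FOS a GC box and a TATA box at bases -33 to -28, GNAI3 a pair of GC boxes and an ETS motif, and NVL none of these 4 motifs. A match is a description of letters and not a bound site.

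SON-free peaks were built on few fragments. The fold enrichment and −log10 p that the peak caller wrote for each peak could be solved for the whole number of fragments at its summit and for the local background the caller expected there. Median summit height was 12 fragments (interval of the median 12 to 12) in SON-free peaks and 24 (23 to 24) in met peaks, a ratio of 2. The middle 50% of SON-free peaks lay between 10 and 16 fragments and of met peaks between 18 and 32, so the middle ranges did not overlap. The tallest SON-free peak had 60 fragments and the tallest met peak 337. The background differed more than the height. Its median was 1.30 fragments in SON-free peaks and 4.56 in met peaks, a ratio of 3.50. The caller's fold enrichment went the other way, with a median of 5.41 (5.34 to 5.45) in SON-free peaks and 4.52 (4.48 to 4.64) in met peaks. Median −log10 p was 8.55 (8.54 to 8.68) against 10.4 (10.3 to 10.5), and median width was 220 bp against 257 bp. The median SON-free peak was thus lower in fragments and in background, but higher in fold enrichment. All peaks passed the same q cutoff, and over a lower background a peak needs a higher fold enrichment to be listed. Near the cutoff, a peak of 8 fragments over 1.30 had 3.91 and one of 15 over 4.56 had 2.88. The part of the cutoff in the difference was not tested.

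When all HMGB2 peaks were cut by rank into 5 classes of equal size, the share without SON fell from 83.0% (80.7 to 85.1) in the class with the fewest fragments to 1.75% (1.09 to 2.66) in the class with the most. Between them the shares were 56.9%, 28.7% and 10.3%. Classes of background gave nearly the same steps, from 82.3% to 1.42%. Classes of fold enrichment did not, with 11% in the lowest class, 51.8% in the next-to-highest and 44.8% in the highest. The part of fragments and of background in these shares was not tested.

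**Figure D1:**
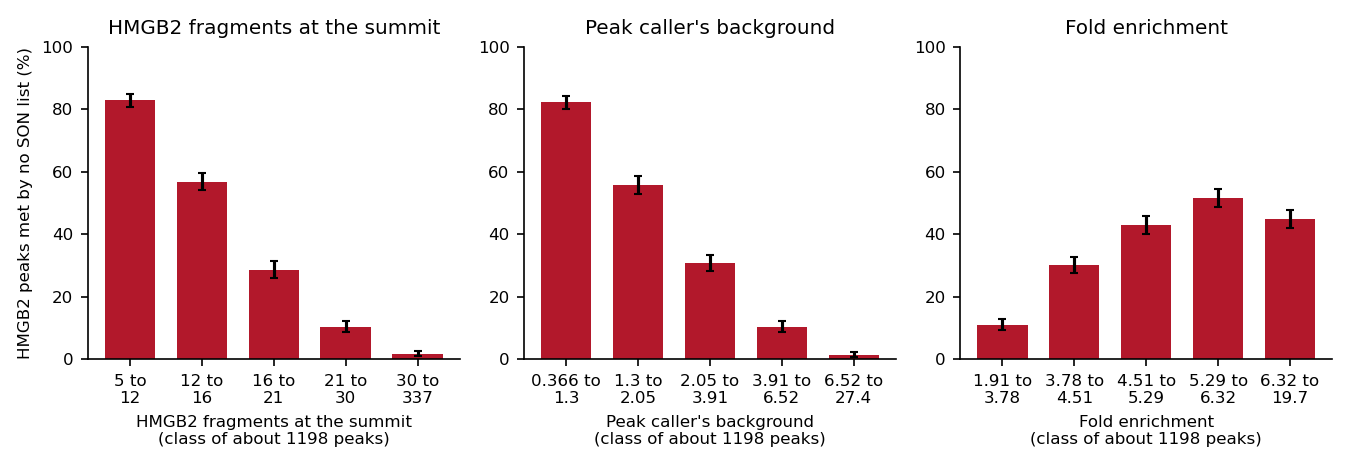
Share of HMGB2 peaks that overlapped no SON peak (vertical axis, percent) in 5 rank classes of summit fragments, of background in fragments and of fold enrichment (horizontal axis, lowest to highest value of each class), with 95% exact binomial intervals as bars. The share drops from 83.0% to 1.75% over the classes of fragments and from 82.3% to 1.42% over those of background, but peaks in the next-to-highest class of fold enrichment at 51.8%.

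Gene starts were less common among SON-free peaks. A start of a protein-coding gene lay within 1 kb of 496 of 2110 SON-free peaks (23.5%, 21.7 to 25.4) and of 1928 of 3718 met peaks (51.9%, 50.2 to 53.5). These shares leave out chromosome 8, for which no starts were used, and 55 SON-free peaks lie there. A start lay inside 184 SON-free peaks (8.72%) and 1105 met peaks (29.7%). The difference was present at every peak height. In the 5 classes of summit fragments, SON-free peaks were at a start in 23.5%, 23.3%, 23.5%, 24.2% and 23.8% of cases, and met peaks in 45.9%, 48.8%, 48.5%, 48.3% and 59.8%. The tallest class held few SON-free peaks, 5 of 21 at a start (8.22 to 47.2), against 56.9 to 62.7 for met peaks. In classes of background the shares differed likewise in the 4 lower classes, but in the highest the intervals overlapped, with 8 of 17 SON-free peaks (47.1%, 22.98 to 72.2) against 55.9% (52.96 to 58.8) of met ones. The odds of a start were 0.285 times (0.253 to 0.322) those of met peaks, and 0.338 times (0.290 to 0.394) within strata of both fragments and background (Mantel-Haenszel). The share was lower for SON-free peaks on 21 of 22 chromosomes. The start table holds 79.2% of protein-coding genes. With either end of every protein-coding gene in its place, the shares were 26.8% (24.98 to 28.8) and 54.7% (53.1 to 56.3) on all chromosomes.

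**Figure D2:**
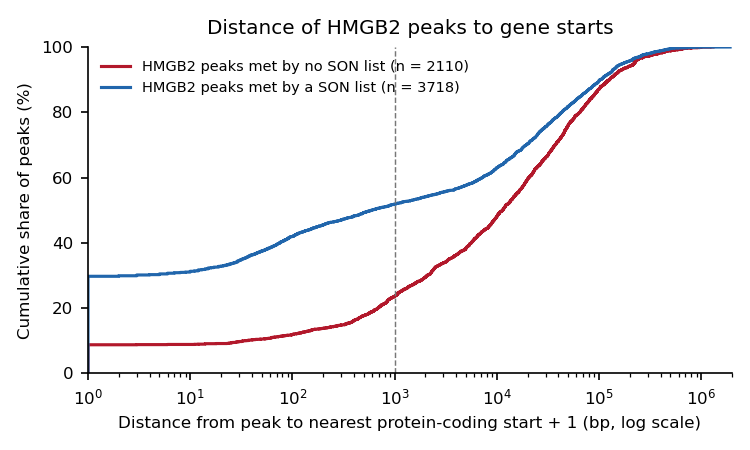
Cumulative share of HMGB2 peaks (vertical axis, percent) by the distance from the peak to the nearest protein-coding gene start plus 1 (horizontal axis, bp, log scale), for 2110 peaks met by no SON list and 3718 met by a SON list, with a dashed line at 1 kb. The curves start at 8.72% and 29.7% for peaks that hold a start, stand at 23.5% and 51.9% at 1 kb and approach each other at longer distances.

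Fewer SON-free peaks at starts left a larger share of them elsewhere. The shares away from starts below are of all peaks, so they follow in part from that difference. SON-free peaks lay in protein-coding genes nearly as often as met peaks did, 60.3% (58.2 to 62.4) against 63.1% (61.5 to 64.6). Inside such a gene and over 1 kb from any start were 41.9% of SON-free peaks and 24.9% of met peaks. Of peaks over 1 kb from a start, 884 of 1614 SON-free and 927 of 1790 met ones lay in such a gene. That difference is much smaller. Outside all genes and over 5 kb from a start were 19.3% (17.7 to 21.1) against 12.6% (11.6 to 13.8). With each gene of known strand split into 5 equal parts, the part next to the start held 41.8% of 1042 SON-free peaks and 63.1% of 1848 met peaks. The part at the far end held 15.8% (13.7 to 18.2) and 8.06% (6.86 to 9.40). Within 1 kb of a gene's far end and away from any start lay 4.22% (3.40 to 5.17) of SON-free peaks and 2.10% (1.66 to 2.61) of met ones. With peaks near starts kept in, these shares were 5.45% (4.52 to 6.51) and 5.24% (4.55 to 6.01), and the intervals overlap.

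The genes that carried SON-free peaks in their bodies were long and mostly had SON elsewhere. There were 535 protein-coding genes with such a peak in the body away from starts, and their median length was 75.1 kb, against 25.6 kb over 15812 genes with a known start. In untreated cells a SON peak lay somewhere in the body of 83.2% (79.7 to 86.3) of them and of 53.2% of all. At 3 days the shares were 63.4% and 37.2%, and at 6 days 40.2% and 18.4%. At the start, 26.5% of the 535 had an HMGB2 peak met by SON, against 13.7% of all. Longer genes have more room for every kind of peak, and the part of length in these shares was not tested.

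SON-free peaks lay in runs more often than met ones. A run was taken as peaks of one kind with gaps of at most 5 kb. Of the SON-free peaks 271 (12.5%, 11.2 to 13.99) lay in 46 runs of 3 or more, and of the met peaks 68 (1.78%, 1.38 to 2.25) in 21 runs. In 8 runs there were 10 or more SON-free peaks, 113 in all, and the longest held 20. No run of met peaks held more than 5. Most SON-free peaks stood apart all the same, since the median distance to the nearest other one was 69.9 kb, against 63.7 kb among met peaks, and 1658 were single. Members of runs were taller than single ones, with a median of 16 fragments against 12, and were rarer at starts, with 6.34% (3.74 to 9.96) against 26.0% (24.0 to 28.1) over single peaks and pairs. These shares use the start table, which does not hold every gene. At either end of any protein-coding gene the shares were 18.8% (14.3 to 24.0) and 28.0% (26.0 to 30.1), a smaller gap. Of the 46 runs 38 overlapped a protein-coding gene. In untreated cells a SON peak lay between the peaks of 14 runs and inside or within 5 kb of 33. The corresponding counts within 5 kb were 29 at 3 days and 15 at 6 days. A median of 26.2% of a run's span was covered by its peaks.

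In the gene body itself, 18 genes held at least 5 SON-free peaks and 6 held at least 10, against 3 and 0 genes for met peaks, although there were more met peaks in all. IGFBP5, a secreted binding protein of insulin-like growth factors, led with 18 SON-free peaks. Their summed width was 8.62 kb, part of it past the gene's far end, and the gene is 23.4 kb long. Their heights ran from 11 to 29 fragments with a median of 14.5, over a median background of 1.54 fragments. The strongest (chr2:216670978-216672110) crossed the gene's far end, 19.2 kb from the nearest SON peak. The single met HMGB2 peak of IGFBP5 and its single SON peak, present in untreated cells and in neither ICM list, lay at the gene's start. LOC124900515, an lncRNA inside IGFBP5, counts 8 of the same stretch's peaks.

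NEAT1, the architectural RNA of paraspeckles, bodies that adjoin nuclear speckles, held 14 SON-free peaks and no met one. Their heights ran from 13 to 28 fragments, with a median of 18.5 over a background of 3.04. Within 5 kb of the gene the counts were 20 SON-free peaks, 1 met peak, 2 untreated SON peaks, 1 at 3 days and 0 at 6 days. The run of 20 spanned 29.96 kb (chr11:65418817-65448780). MALAT1, an RNA of nuclear speckles, is a neighbour of NEAT1 and had 2 SON-free and 2 met HMGB2 peaks within 5 kb.

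TPM4, a tropomyosin of actin filaments, held 13 SON-free peaks of 9 to 19 fragments, all of them past its 2 met HMGB2 peaks and its 2 untreated SON peaks. PDE10A, a phosphodiesterase that breaks down cyclic nucleotides, held 12 in a body of 660.8 kb, with a run of 6 in 11.6 kb. Both had 2 met peaks, and SON was listed in the body of TPM4 at 3 days but in that of neither gene at 6 days. SON was thus present in each of these genes or within 5 kb of it. That it lay at positions other than the SON-free peaks follows from the rule that selected them.

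**Figure D3:**
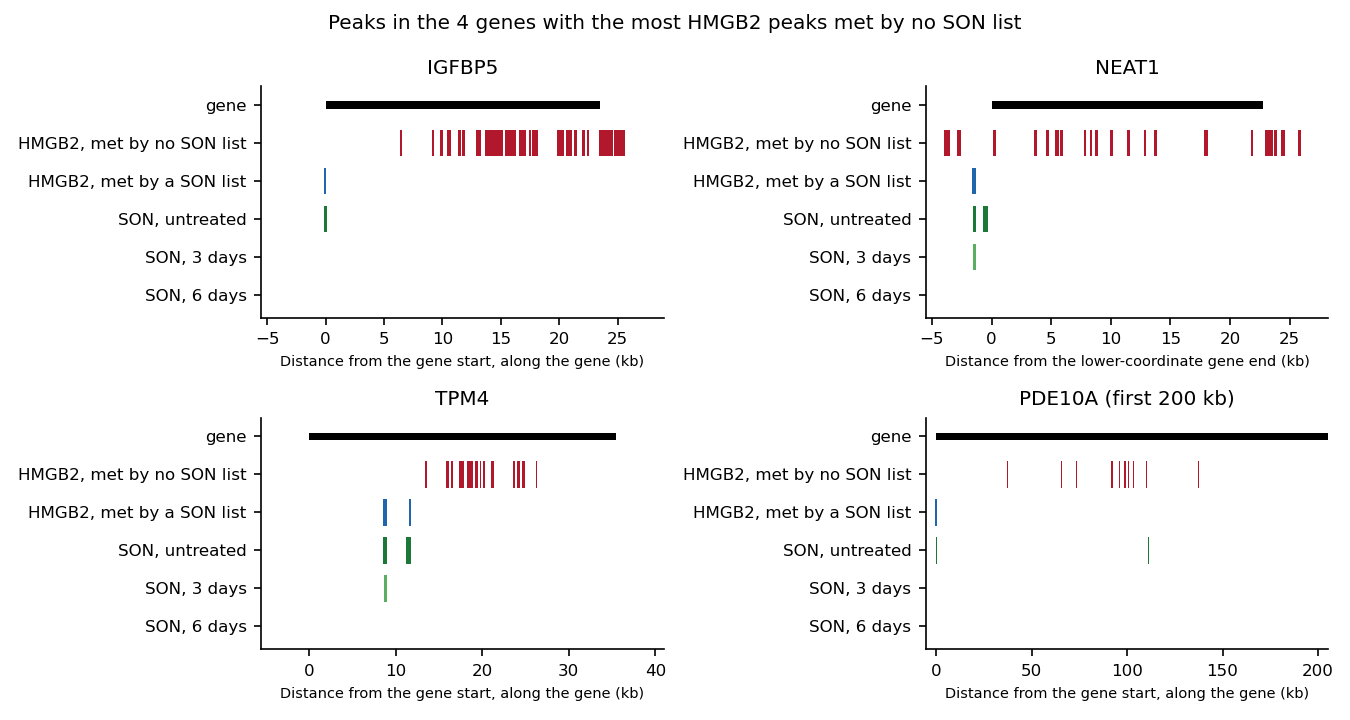
Positions of HMGB2 and SON peaks (rows) along IGFBP5, NEAT1, TPM4 and PDE10A and the 5 kb around each, in kb from the gene start, or for NEAT1 from the end with the lower coordinate (horizontal axis), with the shortest peaks widened so that they can be seen. The red marks, HMGB2 peaks met by no SON list (18, 14, 13 and 12 inside the 4 genes), run along the gene. By the rule that selected them, none overlaps a SON peak.

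The other leading genes were of like kind. LOC221946, an lncRNA beside the cytoskeletal actin gene ACTB, held 11 SON-free peaks with a median of 21 fragments and no met one. The run there counted 13 peaks (chr7:5513704-5528396) and reached into ACTB. ADAMTSL4-AS1 held 10 and met 3, in a run that also crossed MCL1, an anti-apoptotic member of the BCL2 family. LMNA, the gene of nuclear lamins A and C, held 8 SON-free and 6 met peaks, and had 7 untreated SON peaks of its own, so both kinds were mixed there. CSRP1, a LIM protein of the cytoskeleton, held 7, and FOSB, an AP-1 subunit, 6. Strand was not used in these lists of peaks, so where genes overlap a peak is not assigned to one of them. Runs outside these genes included 17 peaks at TNS4 next to IGFBP4, 10 at GPCPD1, 8 at NR4A1, 7 at FOS, 7 at JUND, and 6 each at COL1A1, H3-3B and COL1A2.

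A further run, of 10 peaks, covered MIR23AHG (chr19:13830346-13840919), the host transcript of a microRNA cluster. Heights ran from 13 to 27 fragments, and no SON peak of any list lay inside the run. One SON-free peak (chr19:13836455-13837065, 23 fragments over a background of 4.56) overlapped the hairpins of MIR23A and MIR27A. Their mature sequences are given since this was the only SON-free peak over a pair of hairpins, with the seed, bases 2 to 8, in capitals.
hsa-miR-23a-3p: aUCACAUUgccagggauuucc
hsa-miR-23a-5p: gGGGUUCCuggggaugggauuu
hsa-miR-27a-3p: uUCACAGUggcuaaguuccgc
hsa-miR-27a-5p: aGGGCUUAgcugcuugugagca
The 3p arms begin their seeds with the same letters, UCACA, but no 2 of the 4 seeds are equal. Hairpins of the RefSeq microRNA table were overlapped by 2 SON-free peaks, the other at MIR7111, and by 18 met peaks. By the gene table, which also places MIR612 in the NEAT1 run, microRNA genes lay under 3 SON-free and 19 met peaks. Other short RNA genes were likewise rare. A tRNA gene lay under 11 SON-free peaks (0.508%, 0.254 to 0.907) and 55 met ones (1.44%, 1.08 to 1.87). A small nuclear RNA gene lay under 0 SON-free peaks and under 18 met ones (0.470%). A count of 0 of 2165 allows a share of up to 0.139% by the limit of 3 counts, and the exact interval reaches 0.170%.

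The strongest SON-free peak by −log10 p was at one of those tRNA genes. It covered TRG-TCC2-1, a glycine tRNA (chr1:146036998-146037360), with 34 fragments over a background of 1.30, a fold enrichment of 15.2 and a −log10 p of 36.5, and the nearest SON peak was 624 bp away. Next came peaks in KDM6B, a histone H3 lysine 27 demethylase (chr17:7836748-7837038, 31 fragments), and at the far end of FOSB (chr19:45473786-45477610, 36 fragments), which at 3825 bp was the widest SON-free peak. A peak in the pseudogene LOC124902904 had 28 fragments and one in ADAMTSL4-AS1 34. The peak at the MUS81 start had 35 fragments over 2.61, and that at the NVL start 60 over 10.4, the latter 26.0 kb from SON. The IGFBP5 peak and one in COL18A1, the gene of collagen XVIII (20 fragments), followed. In 6 of these 9 the nearest SON peak was within 1.07 kb.

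Around the genome the distance to the nearest SON peak had a median of 7.29 kb, with 25% of peaks under 2.07 kb and 25% over 21.6 kb. It was under 100 bp for 29 peaks, within 1 kb for 353 (16.3%), within 10 kb for 1247 and within 100 kb for 2101. Measured to 1 list at a time, the median was 7.73 kb to untreated SON, 20.3 kb to SON at 3 days and 49.6 kb to SON at 6 days. These lists hold 22216, 11028 and 5481 peaks, and a shorter list leaves longer distances by itself. Nearest to the rule from inside were peaks 4 bp from SON at LOC344967 near the N4BP2 start (14 fragments), 8 bp at TRAF3IP2 (20) and 12 bp at APIP and PDHX (17). Nearest from outside were peaks that overlapped SON by 2 bp at IPO9 (8 fragments), 10 bp at NOL3 (8) and 16 bp in TTC7A (10). Within 50 bp of the border 13 peaks lay on each side. The farthest SON-free peaks were on chromosome 13 at 2313.7 kb (13 fragments) and 471.6 kb (13 fragments), and in LUZP2 on chromosome 11 at 437.8 kb (7 fragments).

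SON-free peaks within 1 kb of SON were more often at starts than those 1 to 100 kb from it. Within 1 kb of a SON peak 47.2% (41.8 to 52.7) of 343 lay at a protein-coding start. From 1 to 10 kb the share was 16.8% (14.4 to 19.5), from 10 to 100 kb 20.3% (17.6 to 23.2), and beyond that 30% (18.8 to 43.2) of 60. The interval of this farthest class overlaps that of the nearest. Median height fell from 13 fragments in the nearest class to 10 in the farthest, and median fold enrichment was 5.24, 5.32, 5.55 and 5.64. The share at starts within 1 kb of SON was near the 51.9% of met peaks.

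Among protein-coding genes, 1641 of 19974 (8.22%) had a SON-free peak in the gene or within 5 kb, and 3701 (18.5%) had a met HMGB2 peak. Over all 59098 RefSeq genes, 4.15% had a SON-free one. Pairing each peak with every protein-coding gene within 5 kb gave 2187 SON-free and 4484 met pairs, so 32.8% of pairs were SON-free. The gene lists below are read beside these background values. The 8.22%, 18.5% and 32.8% are of protein-coding genes, while the small nuclear and noncoding RNA lists hold noncoding genes. For SON peaks no share over all genes within 5 kb is given, so a list's SON counts have no background value. Genes that lie side by side share peaks, lists differ in gene length, and no test of a list was made.

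Cells switch on genes of the AP-1 family and other immediate early genes within minutes of a stimulus. SON-free peaks were at 18 of 28 of them (64.3%, 44.1 to 81.4), against 8.22% of all protein-coding genes. Met peaks were at 19 of 28 (67.9%, 47.6 to 84.1), also above their share of all protein-coding genes, 18.5%. Untreated SON was at 26. There were 60 SON-free pairs and 42 met ones, a SON-free share of 58.8% (48.6 to 68.5). FOSB had 9 SON-free peaks within 5 kb and 3 met ones, NR4A1, an orphan nuclear receptor, 8 and 6, FOS 7 and 2, and JUNB, an AP-1 subunit, 4 and 3. The strongest SON-free peak within 5 kb of FOS (chr14:75284241-75284950, 26 fragments) was 1.70 kb from SON.

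Genes of the actin cytoskeleton had SON-free peaks at 17 of 30 (56.7%, 37.4 to 74.5), and 60.5% of pairs were SON-free. Met peaks were at 19 of the 30 (63.3%, 43.9 to 80.1), against 18.5% of all protein-coding genes, so both kinds were frequent there. ACTB had 7 SON-free peaks within 5 kb and no met one, with SON listed there at 3 days alone. TPM4 had 13 and 2. CFL1, the actin-severing cofilin, had 3 and 2, one of them being the peak at the MUS81 start. MYL6, a myosin light chain, had 1 with 21 fragments and a fold enrichment of 10.3. Genes of the fibroblast matrix followed with SON-free peaks at 13 of 31 (41.9%, 24.5 to 60.9) and 61.7% of pairs, and met peaks at 16 (51.6%, 33.1 to 69.8). COL1A2 and COL1A1, the chains of type I collagen, had 9 and 7 SON-free peaks and 1 met peak each. COL3A1, the fibrillar collagen III, had 1 of 26 fragments, 37.99 kb from SON, and FBLN1, a fibulin of the matrix, 1 of 20 fragments.

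Genes of the secretory phenotype of senescence, the cytokines and matrix enzymes that senescent cells release, had SON-free peaks at 8 of 39 (20.5%, 9.30 to 36.5) and met peaks at 5. Of their pairs 35 of 40 (87.5%, 73.2 to 95.8) were SON-free, the highest share of the 17 lists. IGFBP5 alone gave 19 of the 35. LIF, a cytokine of the interleukin 6 family, had 4 and no met peak, and no SON peak of any list lay within 5 kb of it. IGFBP4 had 4 in the same way, and FGF7, a growth factor for epithelia, had 2. Untreated SON was within 5 kb of 18 of the 39 genes.

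Met peaks were at more genes than SON-free ones in every list but the secretory phenotype, as over all protein-coding genes (18.5% against 8.22%). In the first 5 lists below, the interval of the share of genes with a SON-free peak held that 8.22%. It did so too in the lists of the next paragraph except p53 targets. Genes of nuclear speckles and splicing had SON-free peaks at 5 of 46 (10.9%, 3.62 to 23.6) and met peaks at 27 (58.7%), and 14.3% (4.81 to 30.3) of pairs were SON-free. SF3B2, a subunit of the U2 snRNP, had the strongest, with 13 fragments. Heat shock genes and chaperones had 4 of 30 (13.3%, 3.76 to 30.7) against 19, and ribosomal protein genes 7 of 76 (9.21%) against 33, with 17.9% and 18.0% of pairs. Cell cycle genes had 1 of 36 against 14, at CDC6, a replication licensing factor, and small nuclear RNA genes 1 of 28 against 21, at RNU11. Clustered histone genes had SON-free peaks at 15 of 51 (29.4%, 17.5 to 43.8), above the 8.22% of all protein-coding genes, beside met peaks at 41. Their SON-free share of pairs was 27.1% (17.2 to 39.1), an interval that holds the 32.8% of all protein-coding genes. Some of these genes share a peak, such as that near H2AC17, H2BC17 and H3C12 with 25 fragments. Untreated SON was at 85.7% (small nuclear RNAs) to 96.7% (heat shock genes and chaperones) of the genes of these 6 lists. These values too lack a share over all genes beside them.

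Of the remaining lists, p53 targets had SON-free peaks at 7 of 29 genes (24.1%, 10.3 to 43.5), among them DDB2, a damage sensor in DNA repair, whose peak of 16 fragments had no SON peak of any list within 5 kb of the gene. SON-free peaks were at 5 of 25 noncoding RNAs of nuclear bodies and snoRNA hosts, where NEAT1 gave 20 of 25 pairs. Translation factors had 5 of 30, with 4 of the 8 pairs at EIF1, glycolysis genes 3 of 20, with 2 at GAPDH, high mobility group genes 3 of 23, and CTCF and cohesin genes 3 of 18. Markers of other cell types, kept as a check of the fibroblast label, had 1 of 35 (2.86%), at GFAP. Peak lists do not measure expression, so a marker's RNA was not examined.

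**Figure D4:**
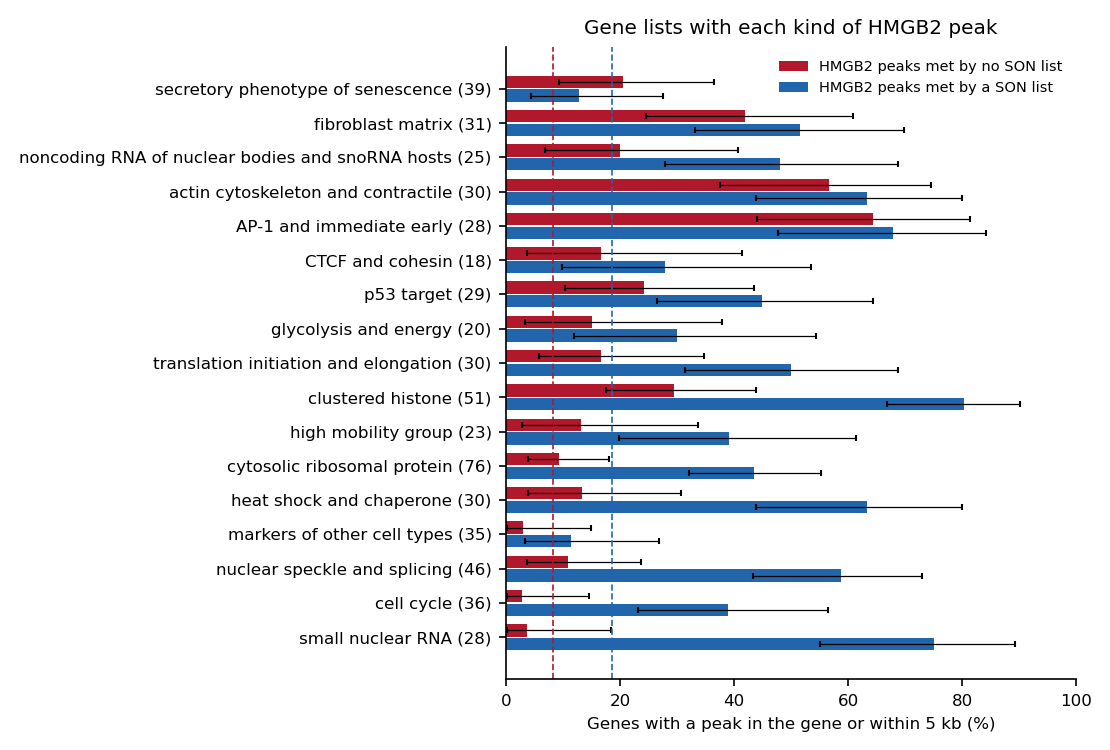
Share of the genes of 17 lists (vertical axis, with the number of genes) that had an HMGB2 peak in the gene or within 5 kb (horizontal axis, percent), in red for peaks met by no SON list and in blue for peaks met by one, with 95% exact binomial intervals and dashed lines at the shares of all protein-coding genes, 8.22% and 18.5%. Lists are ordered by the share of SON-free pairs, from the secretory phenotype (87.5%) to small nuclear RNAs (4%), and blue exceeds red in every list but the first.

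The start windows under SON-free peaks differed from those under met ones in the CpG ratio and in the NRF1 and CCAAT motifs. Windows of 300 bases, from 250 before each start, were compared where a start of a protein-coding or lncRNA gene lay inside a peak, with 1 start taken per peak, 213 for SON-free and 1243 for met peaks, beside 34961 windows of all genes. Of all windows 22132 were at protein-coding starts, while such a start lay inside 184 SON-free and 1105 met peaks. The mix of kinds of start in all windows was not matched to that under peaks. Median GC content was 66.0% (64.3 to 68.0) under SON-free peaks, 63.7% (63.0 to 64.3) under met ones and 58.7% in all windows. The first pair of intervals meet at 64.3%. Median CpG counts per window were 23 (21 to 26) and 25 (24 to 26), and these intervals overlap. The CpG ratio, observed over expected from base content, was lower under SON-free peaks, 0.752 (0.726 to 0.784) against 0.842 (0.829 to 0.854), and 0.580 in all windows. The NRF1 motif (GCGCATGC) was in 2 of 213 SON-free windows (0.939%, 0.114 to 3.35), in 7.08% (5.72 to 8.65) of met and in 3.06% of all windows. CCAAT was in 37.6% (31.0 to 44.4), 53.3% (50.4 to 56.1) and 34.6%. The ETS motif was in 12.7% (8.52 to 17.9), 18.7% (16.6 to 21.0) and 10.3%, where the first pair of intervals overlap. The CTCF core run was in 23.9% (18.4 to 30.3), 17.3% (15.2 to 19.5) and 14.4%, and those intervals overlap too. The GC box was at like shares, 71.4% (64.8 to 77.3) and 72.5% (69.9 to 74.95), against 45.03% of all windows. AP-1 (TGANTCA) was in 6.10% (3.29 to 10.2), 4.67% and 7.68%, so it was no more frequent at SON-free starts than at starts in general. Both strands were searched, and none of the 11 motifs lies whole inside another. These windows describe starts alone, and no sequence was read for the peaks away from them.

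**Figure D5:**
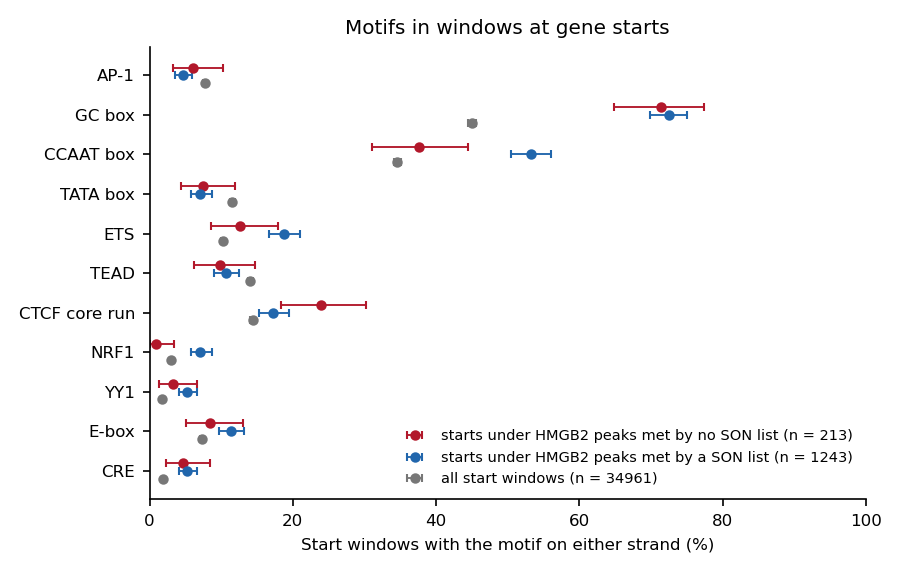
Share of 300-base windows at gene starts that hold each of 11 motifs on either strand (horizontal axis, percent), for starts under HMGB2 peaks met by no SON list (red, n = 213), under met ones (blue, n = 1243) and for all windows (grey, n = 34961), with 95% exact binomial intervals. The red and blue intervals are apart for the CCAAT box (37.6% and 53.3%) and NRF1 (0.939% and 7.08%) and overlap for the rest.

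By chromosome the SON-free share of HMGB2 peaks ran from 30.6% (18.3 to 45.4) on X to 43.0% (38.8 to 47.3) on chromosome 17, where it was 232 of 539. The interval of chromosome 17 lay above those of chromosomes 9 (31.4%, 25.5 to 37.9) and 16 (31.5%, 25.4 to 38.1). It also lay above those of chromosomes 5 (32.6%, 27.0 to 38.6) and 19 (33.2%, 28.9 to 37.7). All other pairs of intervals overlapped. Chromosome 17 was singled out as the highest after its value was seen. The fullest 1-Mb bins held the runs described above. The bin of NEAT1 and MUS81 (chr11:65000001-66000000) had 29 SON-free peaks of 61 HMGB2 peaks, that of IGFBP4 (chr17:40000001-41000000) 25 of 37, and that of COL1A1 (chr17:50000001-51000000) 24 of 34.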

How the data were processed

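The data were 4 peak lists from the 6 samples, a single list for each group, and titles and treatment labels gave the groups. The HMGB2 list has the narrowPeak layout. Its fold enrichment is a ratio the authors deposited with a −log10 p, a −log10 q and a score, and the names of its peaks, set by the authors, carry a q cutoff of 0.03. Each SON list has the layout of the IDR tool on 2 replicates, per the file's columns, where the authors' −log10 p is the lower of the replicates' values and the deposited score is a scaled IDR. Per the submitters' processing notes, hg38, bcl2fastq 2.17, Bowtie2, deepTools and MACS2 were used, with no roles given. Whether an input entered the peak calling, whether replicates were pooled and the depth of the libraries are not given in the sources used here. The deposited values served only within their own list.

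HMGB2 peaks of chromosomes 1 to 22 and X with no overlap of 1 bp with any SON list were the members. The summit count n and background b of each HMGB2 peak were solved from its fold enrichment, (n+1)/(b+1), and its −log10 p, the Poisson chance of more than n at mean b. All 5992 peaks gave a whole n within a tolerance of 0.0001, and 4 gave a further whole n within it. Of the backgrounds 74.0% were multiples of 0.652, within 0.005. These counts are not adjusted for depth and compare peaks of 1 library only.

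Gene bodies and starts came from RefSeq tables of GRCh38.p14, which name 19974 protein-coding genes and give starts for 15812, without chromosome 8. The tables cover the same build as the hg38 of the notes. No genome sequence was used, so motifs and base composition, planned for peaks, were taken from windows at starts. Shares have Clopper-Pearson intervals, medians have order-statistic intervals and odds ratios are Mantel-Haenszel estimates, all at 95%. No test between conditions or of a gene list was made. The overlap, the solving of counts and the intervals were tested on simulated data.

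Named were the 10 strongest SON-free peaks, of which 1 is not reported here, the 10 genes with the most in their body, the 3 farthest from SON, the 3 on each side of the rule and up to 4 genes per list. Other genes named at runs were chosen after their values were seen. The members, the 17 gene lists and the motifs were chosen with earlier results of these data known. Solving for counts, strata and runs were chosen after seeing the data. Alternatives covered the overlap rule, the SON and HMGB2 thresholds, merging, windows at genes and the measure of strength. Software was scipy 1.17.1, pandas 2.3.3, numpy 2.4.6 and matplotlib 3.10.9 under Python 3.11.15.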

Additional observations from a re-analysis of the deposited data

Results flagged for a closer look

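Outside chromosomes 1 to 22 and X, which were not used above, the HMGB2 list held 21 lines, and 3 of them met no SON list. This is a signal in lines that no comparison used. Of the 21 lines 9 were on the mitochondrial genome, of which 2 met no SON list, and the −log10 p of the 21 ran from 5.83 to 150.5. Their source was not tested.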

How the results depend on the processing

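In each alternative SON-free peaks were at gene starts less often than met peaks. With SON lines within 1 kb counted as met, 18.9% were at a start and the median distance to SON was 10.2 kb. With SON lines of an IDR of at most 0.05, 2983 peaks were SON-free (2165 as reported). The difference in median −log10 p between SON-free and met peaks was then -2.06 (-1.85 as reported). Of these SON-free peaks 26.5% were at a start, and the distance was 16.1 kb. Among the stronger 50% of HMGB2 peaks 792 were SON-free, with a difference of -1.95, 56.8% in protein-coding genes, 649 genes with one within 5 kb, 15 genes with 3 or more in the body (64 as reported) and a distance of 6.71 kb. Merging HMGB2 peaks within 1 kb gave 9.10 kb. A start window of 500 bp gave 17.7% and of 5 kb 38.2%. With all genes 26.1% were at a start and 73.6% in a gene. In fold enrichment the difference in strength reversed, to 0.90. Counting gene bodies only left 1083 genes. Of the alternatives chosen after seeing the data, either gene end gave 26.8%, and leaving out runs of 3 or more gave 26.0%. The cause was not tested. The other settings (the summit rule, the untreated SON list alone, a q of at most 0.01, width classes) moved no value beyond its interval or a count by over 1.5 times. A place where SON stayed below its caller's threshold counts as free of SON here. Windows of 100 bases around the summit were not run, as no genome sequence was used. No paired analysis was possible because each group had 1 list, and for the same reason no replicate could be left out.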
